A study of Mus musculus with 2 samples.

Results

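The genes described here are Mir99a, Mir99b and Mir100, Mir125a, Mir125b-1 and Mir125b-2, and Gm25927, a row whose opposite-strand reads lie on Mirlet7e. They were chosen by name, from their identifiers, and are 7 of the 1973 miRNA genes counted. All 7 reached 10 counts in each library. MicroRNA sequencing had been run on total RNA from the intestine of 2 newborn mice of strain B6NCrl at postnatal day 0, with 1 library per pup and an RNA size range below 30. The pups, called pup 1 and pup 2, came from the same pregnant female, no treatment or allele is named in the labels, sex was not collected, and the segment of intestine is not given. The series has this 1 group, so levels are described and the pups are compared as libraries.

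miR-99 and miR-100 form one small family, and miR-125 is the vertebrate relative of lin-4, a miRNA found through developmental timing in worms. In mammals a miR-99 or miR-100 gene, a let-7 gene and a miR-125 gene lie in this order in several copies of one ancestral cluster. A miRNA pairs with target transcripts chiefly through its seed, bases 2 to 8. Known targets of miR-99 and miR-100 include Mtor and Igf1r, genes of growth signalling, and both let-7 and miR-125 repress Lin28a, whose protein blocks the maturation of let-7 precursors.

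The mature sequences below, from RefSeq on GRCm38.p6, set out which members share a seed and which reads can be told apart. They are the 5′ arms of the 6 genes and of let-7e, with the 3′ arms of the Mir125b genes and the 5′ arm of miR-351 and of miR-10a for comparison. Capitals mark the seed. Mature sequences were found for all 7 of the genes looked up.
miR-99a-5p: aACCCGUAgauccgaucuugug
miR-100-5p: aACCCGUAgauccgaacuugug
miR-99b-5p: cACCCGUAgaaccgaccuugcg
miR-125a-5p: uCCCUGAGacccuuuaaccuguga
miR-125b-5p: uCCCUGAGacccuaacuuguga
miR-351-5p: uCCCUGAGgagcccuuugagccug
let-7e-5p: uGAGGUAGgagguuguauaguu
miR-125b-1-3p: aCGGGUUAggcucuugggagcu
miR-125b-2-3p: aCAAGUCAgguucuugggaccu
miR-10a-5p: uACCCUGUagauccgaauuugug

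The miR-99 and miR-100 seed, ACCCGUA, was held by 3 genes of the RefSeq table, all of them members. miR-99a-5p and miR-100-5p differ at 1 of 22 bases, written U16A, with positions counted from the 5′ end of miR-99a-5p. miR-99b-5p differs from miR-99a-5p at 4 of 22 bases, A1C, U11A, U16C and U21C, and A1C is the base before the seed. miR-125a-5p and miR-125b-5p begin with the same 13 bases. Their seed, CCCUGAG, was held by 6 genes, of which Mir351 was the only one outside the members with at least 10 counts in each library. miR-10a-5p has another seed and shares an 11-base stretch with miR-100-5p.

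The miR-125b-5p sequence lies in the hairpins of both Mir125b-1 and Mir125b-2, which share a run of 24 bases. A read of that arm maps to both places, and the files hold multi-mapped reads in a row of their own, read here as entering the count of no gene. The values of the Mir125b genes therefore rest on their 3′ arms or on reads that reach past the shared run, and are lower limits. The 3′ arms differ at 5 of 22 bases. The same holds for 2 let-7 partners: Mirlet7a-2 shares 23 bases with Mirlet7a-1, and Mirlet7c-1 shares 23 bases with Mirlet7c-2. The longest run that another hairpin shares with Mir99a or Mir100 is 16 bases, their own common run, and it is 11 bases for Mir99b, 14 for Mir125a and 17 for Mirlet7e. The hairpins of Mir125b-1 and Mirlet7e are shown with their mature arms in capitals, since the first carries the shared run from base 13 to base 36 and the second lies under the Gm25927 row.
Mir125b-1 (GRCm38.p6, chr9:41581926-41582002, plus strand): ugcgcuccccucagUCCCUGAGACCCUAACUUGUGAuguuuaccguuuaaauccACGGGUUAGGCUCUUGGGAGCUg
Mirlet7e (GRCm38.p6, chr17:17830352-17830444, plus strand): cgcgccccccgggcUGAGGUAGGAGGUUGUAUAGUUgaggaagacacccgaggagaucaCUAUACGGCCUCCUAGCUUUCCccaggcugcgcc

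The genes lie in 3 clusters on the plus strand of GRCm38. Coordinates are those of GENCODE M21, in which Mir125a and Mirlet7c-1 carry a later version than in the files, so the intervals counted may differ from those given for these genes. On chromosome 16, Mir99a (77598936 to 77599000), Mirlet7c-1 (77599657 to 77599750) and Mir125b-2 (77646273 to 77646343) lie in introns of the noncoding host gene Mir99ahg. On chromosome 9, Mir100 (41531425 to 41531504), Mirlet7a-2 (41536716 to 41536811) and Mir125b-1 (41581926 to 41582002) lie in introns of 3110039I08Rik and Gm49317, and Mir125b-1 also overlaps an exon of Gm28119. On chromosome 17, Mir99b (17830188 to 17830257) and Mirlet7e (17830352 to 17830444) lie in introns of the protein-coding gene Spaca6, and Mir125a (17830812 to 17830879) overlaps an exon of a Spaca6 transcript. The Mir99b cluster spans 692 bases from end to end, against 47.4 kilobases for the Mir99a cluster and 50.6 kilobases for the Mir100 cluster. Gm25927 occupies 17830343 to 17830459 on the minus strand, so it covers Mirlet7e on the other strand.

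Sequencing gave 6375694 reads for pup 1 and 8373497 for pup 2, and 3567658 and 4683939 of them were assigned to miRNA genes on their own strand. Multi-mapped reads were 30.3% and 29.8% of all reads. The scale for levels is CPM, each gene's counts over 1000000 annotated-strand counts, with no length term, since a miRNA read is the whole short RNA. Capture bias between sequences remains in any comparison of levels between genes. All 12 epithelial marker miRNAs reached 10 counts in each library and held 34.0% ± 3.37 of all counts (SD over the pups, n = 2, as for every ± below), and liver Mir122 had 103 counts in pup 1 and 58 in pup 2.

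The 6 miR-99, miR-100 and miR-125 genes together took 3.21% of counts in pup 1 (exact Clopper-Pearson 95% interval 3.19 to 3.23) and 2.97% in pup 2 (2.95 to 2.98). Such intervals cover counting error only. Mir99a alone held 72.4% ± 0.541 of these counts. The miR-99 and miR-100 genes had 15.6 times the counts of the miR-125 genes in pup 1 and 13.9 times in pup 2, a ratio that leaves out the reads of miR-125b-5p.

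Among the miR-99 and miR-100 genes, Mir99a stood far above its relatives. Its counts were 82503 for pup 1 and 101277 for pup 2, or 23125 and 21622 CPM, and it ranked 11th among the 315 genes of at least 10 counts. Ranks here and below take opposite-strand counts for Gm25927 only. The Gm25301 row, which faces Mir378a, had 84076 and 107200 opposite-strand counts, more than Mir99a, and was not ranked by them. Mir99b had 15241 and 17778 counts, or 4272 and 3796 CPM. Mir100 had 9872 and 10715 counts, or 2767 and 2288 CPM. In both pups the order was Mir99a, Mir99b, Mir100, and no value of one gene reached the range of the next. Mir99a exceeded Mir99b by 2.47 ± 0.05 on the log2 scale of counts within a library, a 5.55-fold ratio, and exceeded Mir100 by 3.15 ± 0.13, an 8.89-fold ratio. The pair that differs at 1 base, Mir99a and Mir100, was thus further apart in counts than Mir99a and the more divergent Mir99b. Mir99b exceeded Mir100 by 0.68 ± 0.07.

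Among the miR-125 genes, Mir125a led. Its counts were 5409 for pup 1 and 7531 for pup 2, or 1516 and 1608 CPM, and it ranked 68th. Mir125b-2 had 921 and 1174 counts, or 258 and 251 CPM. Mir125b-1 had 559 and 610 counts, or 157 and 130 CPM. Mir125a took 79.7% ± 1.65 of the counts of these genes, but the levels of the Mir125b genes are lower limits, so this share says nothing of how miR-125a compares with miR-125b. Both Mir125b genes lose reads of the shared 5′ arm, to an extent that was not measured for either. In counted reads, Mir125b-2 exceeded Mir125b-1 by 0.83 ± 0.16 on the log2 scale, 1.65-fold in pup 1 and 1.92-fold in pup 2. Mir351, which shares the miR-125 seed from a cluster on chromosome X, had 1399 CPM in pup 1 and 1377 in pup 2, below Mir125a in both.

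The Gm25927 row gives the level of let-7e, which has no row of its own. It held 0 counts on its annotated strand in both libraries, and 8163 counts in pup 1 and 9914 in pup 2 on the opposite strand, the strand of Mirlet7e. On the scale of the other members this is 2288 and 2117 CPM. With 1 mismatch allowed, let-7e-5p also lies in the hairpins of Mirlet7a-1 and Mirlet7a-2. Whether reads of let-7e and let-7a were exchanged was not measured. The other 6 members held 0 counts on their opposite strand in both libraries, as did 290 of the 315 genes. Gm25927 took 6.47% of all opposite-strand counts in pup 1 and 6.15% in pup 2, the third highest row after Gm25301, which faces Mir378a, and Gm24083, which faces Mir191. Of the 14 rows with at least 10 opposite-strand counts in each library, 13 face a miRNA gene of the later GENCODE M21 annotation that has no row in these counts.

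**Figure D1:**
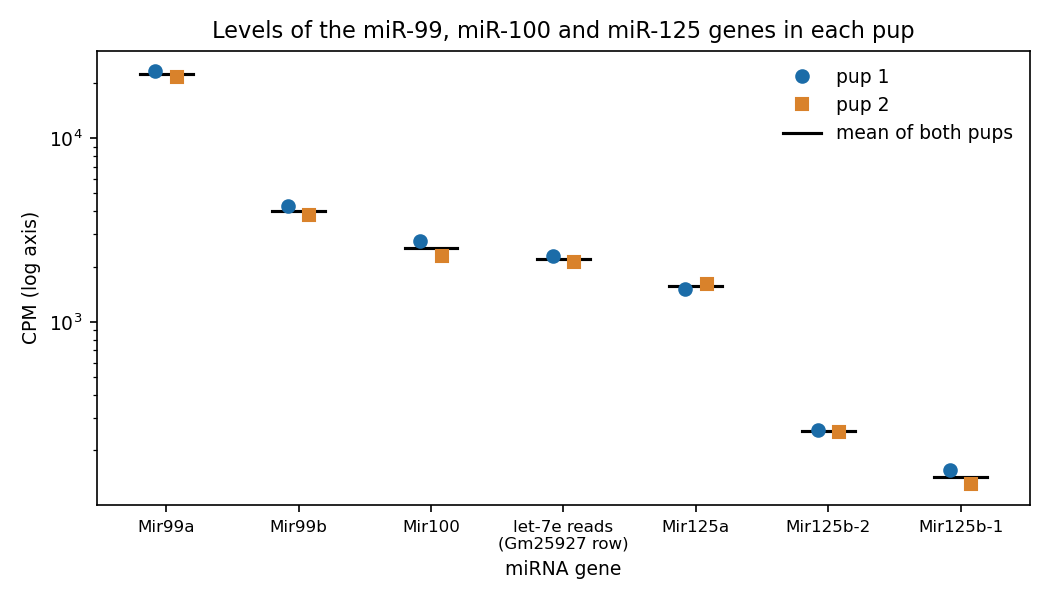
Levels in CPM (log axis) of the 6 miR-99, miR-100 and miR-125 genes and of the let-7e reads in the Gm25927 row, with a circle for pup 1, a square for pup 2 and a bar for their mean. Mir99a stands alone at 23125 and 21622 CPM, Mir100 lies above the let-7e reads in each pup, and the Mir125b genes, whose counts are lower limits, lie below 300 CPM.

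Ordered by mean level over all 7, the genes ran Mir99a, Mir99b, Mir100, the let-7e reads of Gm25927, Mir125a, Mir125b-2 and Mir125b-1. Mir100 and Gm25927 were the closest neighbours. Mir100 was the higher within each library, with 2767 CPM (exact 95% interval 2713 to 2822) against 2288 (2239 to 2338) in pup 1 and 2288 (2245 to 2331) against 2117 (2075 to 2159) in pup 2. Their ranges over the pups met only because Mir100 in pup 2 was at the level of Gm25927 in pup 1. The means of the other neighbouring pairs lay 4.44 to 20.2 times the larger SD of the pair apart, with no overlap between their ranges. The 20.2 is that of Mir125a over Mir125b-2. As the Mir125b levels are lower limits, the places of both Mir125b genes in this order hold for counted reads only.

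Within each cluster the miR-99 or miR-100 gene had the most counts. In the Mir99b cluster the counts were lower at each step along the genome, from Mir99b to let-7e to Mir125a, in both pups. Mir99b exceeded the let-7e reads by 0.87 ± 0.04 on the log2 scale, a 1.83-fold ratio, and exceeded Mir125a by 1.37 ± 0.18, a 2.58-fold ratio. The log2 ratio of Mir125a over the let-7e reads was -0.59 in pup 1 and -0.40 in pup 2. This is the cluster in which no 5′ mature sequence lies unchanged in a second miRNA hairpin of GENCODE M21. The loss described above for shared arms therefore does not arise from exact copies here.

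In the Mir99a and Mir100 clusters the distances were larger, and the lower counts are those that lose shared reads. Mir99a exceeded Mir125b-2 by 6.46 ± 0.04 on the log2 scale and Mirlet7c-1 by 8.68 ± 0.16. Mir100 exceeded Mir125b-1 by 4.14 ± 0.01, which was 17.7-fold in pup 1 and 17.6-fold in pup 2. Mir100 exceeded Mirlet7a-2 by 5.31 in pup 1 and 4.66 in pup 2, the widest spread between pups among the ratios computed here. These ratios are upper limits, because the smaller member of each is a lower limit. As sums of their 3 genes, the Mir99a cluster took 2.27% ± 0.106 of counts, the Mir99b cluster 0.780% ± 0.0393 and the Mir100 cluster 0.275% ± 0.0343. The sums of the Mir99a and Mir100 clusters are lower limits, as their let-7 and Mir125b counts are. That of the Mir99b cluster includes the opposite-strand counts of Gm25927, which are outside the denominator.

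**Figure D2:**
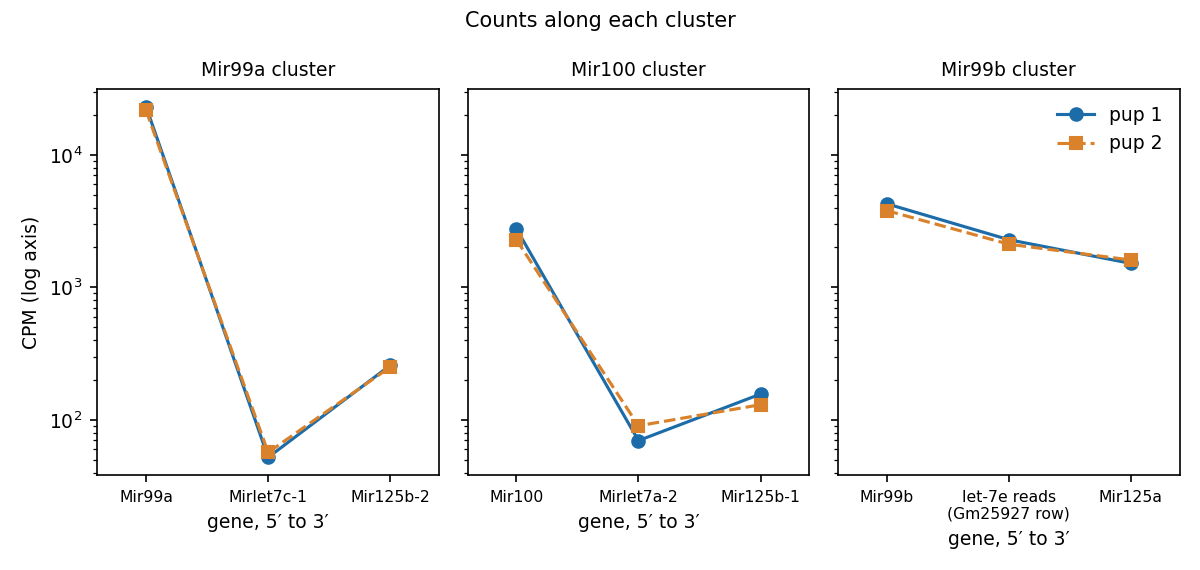
CPM (log axis) of the miR-99 or miR-100 gene, the let-7 gene and the miR-125 gene of each cluster in genome order, with a solid line and circles for pup 1 and a dashed line and squares for pup 2. Levels go from Mir99b at 4272 and 3796 CPM down to Mir125a at 1516 and 1608 in the Mir99b cluster. In the other clusters the let-7 and Mir125b genes lie below 300 CPM, and their shared reads are taken here to be counted for no gene.

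The let-7 family gives the setting of the let-7 partners. Of 12 let-7 list genes, Gm25927 standing for Mirlet7e, 11 had a row and all 11 had at least 10 counts in each library. Mirlet7g, with 42069 ± 1174 CPM, and Mirlet7i, with 26468 ± 3117, were the highest, and neither lies in a cluster with the members. The let-7e reads, 2202 ± 121 CPM, and Mirlet7f-2, with 2273 ± 56.7, had similar counted levels, but let-7f-5p is also the 5′ arm of Mirlet7f-1, so the Mirlet7f-2 value is a lower limit. The partners Mirlet7a-2, with 249 and 423 counts, and Mirlet7c-1, with 186 and 266 counts, stood at 80.1 ± 14.5 and 54.5 ± 3.29 CPM as lower limits. The miR-10 genes have another seed but share stretches of sequence with the miR-99 family. Mir10a had 18882 ± 1385 CPM and Mir10b 8771 ± 1939.

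The pups differed by at most 1.17-fold in these genes with TMM scaling, which sets library sizes from the bulk of genes. Of the 7 members, 6 differed between the libraries by the exact binomial test with Benjamini-Hochberg adjustment over 315 genes, where 41.3% of all genes tested did. Of these, 5 were lower in pup 2, against 20% of all genes, and 1 was higher, against 21.3%. Calls depend on depth: a minimum of 500 counts per library, chosen after the counts were seen because every member meets it, leaves 160 genes, of which 67.5% were called, 33.1% higher and 34.4% lower in pup 2. The median size of the log2 ratio was 0.13 over the members, 0.18 over all genes tested and 0.13 over those 160. The tests compare the libraries of 2 animals and no conditions.

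Mir100 and Mir125b-1, the outer genes of the Mir100 cluster, were the lowest in pup 2 relative to pup 1. The log2 ratio of Mir100, pup 2 over pup 1, was -0.23 (95% interval -0.27 to -0.19; exact binomial adjusted p = 2.38e-29), a level 1.17-fold higher in pup 1. That of Mir125b-1 was -0.22 (-0.39 to -0.05; exact binomial adjusted p = 0.0233). Mirlet7a-2, between them, was higher in pup 2, with a log2 ratio of 0.42 (0.19 to 0.65; exact binomial adjusted p = 0.00102), as was Mirlet7a-1 of another cluster, with 0.38, whose 23-base run it shares. The ratios of Mir125b-1, Mirlet7a-2 and Mirlet7a-1 leave out reads of shared 5′ arms, taken here to be counted for no gene. The same holds below for Mir125b-2, Mirlet7c-1 and Mirlet7c-2.

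In the Mir99b cluster the genes went different ways. Mir99b was lower in pup 2, with a log2 ratio of -0.13 (-0.16 to -0.10), and the let-7e reads were lower, with -0.07 (-0.11 to -0.03; exact binomial adjusted p = 0.00465). Mir125a was higher in pup 2, with 0.13 (0.08 to 0.18; exact binomial adjusted p = 2.36e-06), and its interval does not meet that of Mir99b. The call of the let-7e reads was lost with upper-quartile scaling, which called 39.4% of all genes (exact binomial adjusted p = 0.0590).

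In the Mir99a cluster, Mir99a had a log2 ratio of -0.05 (-0.07 to -0.04), a 1.04-fold difference that passed at its high count (exact binomial adjusted p = 2.71e-14). Mir125b-2 had 0.0012, with an interval from -0.12 to 0.13, and Mirlet7c-1 had 0.17, with an interval from -0.11 to 0.45, and neither passed. Mir351 had 0.02 and did not pass, and Mir10a and Mir10b were lower in pup 2, with -0.11 and -0.41. Of the 11 let-7 list genes 4 were called higher and 4 lower in pup 2, against 21.3% and 20% of all genes tested. The median of their log2 ratios was 0.0085, beside 0.0030 over all genes. Mirlet7g, called lower with -0.01, turned to 0.0068 with upper-quartile scaling and was then not called. Mir98, called lower, lost its call with upper-quartile scaling (exact binomial adjusted p = 0.235), Mirlet7c-2, called higher, lost it with total counts (exact binomial adjusted p = 0.0645), and Mirlet7d was called lower with total counts only, among the 4 scalings.

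**Figure D3:**
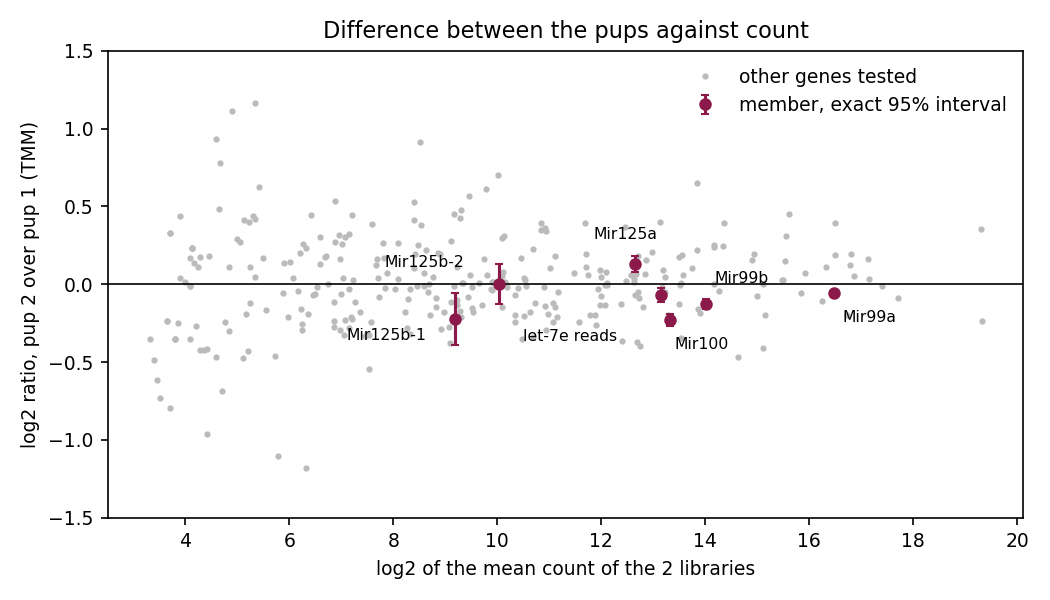
Log2 ratio of pup 2 over pup 1 (TMM scaling) against the log2 of the mean count for the 315 genes tested, members in dark red with exact 95% intervals and other genes in grey; Mir196b and Mir196a-2 lie beyond the plotted range. Mir125a sits above 0 at 0.13, Mir125b-2 on it, and the other 5 members below, from -0.05 for Mir99a to -0.23 for Mir100.

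Scaling moves all ratios by the same amount. With total counts, which called 40.6% of all genes, 53 genes were higher and 75 lower in pup 2 (41.4% of calls higher), against 67 and 63 with TMM scaling (51.5%), and 6 members were called with each. Marker miRNAs of cell types also differed between the libraries: the 12 epithelial genes held 31.6% of counts in pup 1 and 36.4% in pup 2, smooth muscle Mir143 and Mir145a held 18.1% and 15.0%, and Mir126a of endothelium 5.46% and 4.98%. The 12 listed epithelial genes were each called higher in pup 2, against 21.3% of all genes tested. Mir205, an epithelial miRNA outside that list, was called lower, with a log2 ratio of -0.12. The smooth muscle difference lay in Mir143, with a log2 ratio of -0.23, while Mir145a had 0.0050 and did not pass. The mesenchyme list of 4 genes held 0.216% and 0.192%, with 3 of its genes at 10 counts or more in each library and none at 0 in both. Of these, Mir214 was called lower with -0.15, and Mir199b with -0.00065 and Mir199a-2 with 0.33 did not pass. Liver Mir122 was lower in pup 2, with -1.18, and erythroid Mir451a higher, with 0.91. Mir144, the other gene of the erythroid list, had -0.11 and did not pass. The genes furthest apart between the libraries were Mir196b, with 7337 counts in pup 1 and 310 in pup 2, and Mir196a-2, with 272 and 35. Without the 3 Mir196 genes, a setting chosen after seeing the data, the log2 ratio was -0.064 for Mir99a and -0.24 for Mir100. The part of the cell type markers in the ratios of the members was not tested. In such bulk tissue fewer cells of a type and less RNA per cell cannot be told apart.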

How the data were processed

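The deposited files give unnormalized counts of reads for each miRNA gene, on mm10 with annotation M4, as the text notes deposited beside them state. Which aligner and counter made them is not given in the sources used here. Columns hold reads on either strand, the annotated strand and the opposite strand. Reads in no gene (unmapped, multi-mapped or outside genes), 42.1% of reads in each library, stayed out of totals and tests. Symbols and places came from GENCODE M21 (GRCm38), which held 1894 of 1973 identifiers; the other 79 had 0 counts. The M4 boundaries were not used here. Exonic means overlap with an exon of any transcript of a same-strand gene.

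Annotated-strand counts were used, and opposite-strand counts for Gm25927, which are not in the CPM denominator. Genes with at least 10 counts in each library were compared with the exact binomial test, 2-sided, adjusted over 315 genes at 0.05. Its null share was set by TMM effective library sizes (edgeR 4.0.16, R 4.3.3). The test was also run on simulated counts, which held counting error but no variation between animals, so that run cannot show how it does on real libraries. The model of edgeR has no residual degrees of freedom with 1 library per pup. Alternatives were DESeq2 1.42.0 size factors, total counts, upper quartile, minimums of 1 and 100, a 1.5-fold limit, either strand, other denominators, a pseudocount of 0.5 and each pup alone. A hairpin run is the longest stretch shared with any other GENCODE M21 miRNA transcript. Named genes were all members, their let-7 partners, the 2 highest let-7 genes, detected genes sharing a member's seed, the nearest gene in level, and the 3 rows with the most opposite-strand counts; any other gene was picked with its values in view. The members and lists were chosen with earlier results of these data known.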

Additional observations from a re-analysis of the deposited data

Results flagged for a closer look

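Mirlet7f-1, a gene of the let-7 list, has no row in these counts, and reads were found on its strand in the Gm24111 row, which faces it. Gm24111 held 401 opposite-strand counts in pup 1 and 731 in pup 2, 1132 in all, above the 3 counts that a count of 0 allows. They entered no level or list here.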

How the results depend on the processing

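The share of the 6 miR-99, miR-100 and miR-125 genes, 3.09% of annotated-strand counts as a mean of both pups, was 1.73% with all reads as the denominator and 3.74% with the highest gene left out of the denominator, both by construction. A limit of 1.5-fold beside the adjusted p left 0 of 7 members (exact binomial test; 6 without the limit), whose ratios reached 1.17-fold at most, and 10 of 315 genes (130 without it). Mir125b-2, never called, had a log2 ratio of 0.0012 that went to -0.0017 with DESeq2 size factors, -0.043 with total counts, -0.0099 with genes of 1 count in either library and -0.0096 without the 3 Mir196 genes, a setting chosen after seeing the data. Upper-quartile scaling left 5 members called, without Gm25927. Each of the 12 ratios between cluster neighbours or paralogs moved by less than its SD with a pseudocount of 0.5 and had the same sign in each pup. Levels over all reads were lower for all 7 members, and Mir125b-2 stood at 246 CPM with strand ignored. Leaving out a pup leaves no comparison between pups. No paired analysis was possible because the series has 1 group. How many reads the Mir125b, Mirlet7a-2, Mirlet7c-1 and Mirlet7f-2 counts lost to shared 5′ arms was not measured.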

Other observations

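For each member, the gene outside the members with the nearest level was found by the distance of log2 CPM over the 2 libraries. Genes outside the members entered with annotated-strand counts only, so reads that lie on Mir378a, in the Gm25301 row, could not be found. That row had 84076 opposite-strand counts in pup 1 and 107200 in pup 2, close to the 82503 and 101277 counts of Mir99a. Among the genes searched, Mir200c, an epithelial miRNA, was nearest to Mir99a, with 21158 CPM in pup 1 and 23369 in pup 2, a distance of 0.17. Mir127, an imprinted miRNA, was nearest to Mir99b, with 4056 and 3467 CPM and a distance of 0.15. Mir27b was nearest to Mir100, with 2668 and 2253 CPM and a distance of 0.06. Mir183 was nearest to Mir125a, with 1559 and 1585 CPM and a distance of 0.05. Mir18 was nearest to the let-7e reads of Gm25927, with 2277 and 2184 CPM and a distance of 0.05. Mir199b, a mesenchymal miRNA, was nearest to Mir125b-2, with 256 and 248 CPM and a distance of 0.02. Mir676 was nearest to Mir125b-1, with 154 and 137 CPM and a distance of 0.07. As the Mir125b levels are lower limits, Mir199b and Mir676 are nearest to their counted reads only. With 2 libraries such nearness describes the levels only.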
